A study of Bos grunniens with 18 samples.

Results

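The 7 genes described here encode 3 subunits of the proton pump and 4 proteins known from acid-secreting epithelial cells. They are ATP6V1B1, ATP6V1G3, ATP6V0D2, FOXI1, DMRT2, HEPACAM2 and STAP1, 7 of the 18467 genes in the expression table, and each matched 1 gene by its symbol. They were chosen by name, with results of these data in view, from a longer list of clear and narrow cell genes. Known at that point were the peaks of ATP6V1B1, ATP6V1G3, FOXI1 and DMRT2 called lower in corpus over caput. Also known were the candidate adenosines of ATP6V1B1, ATP6V1G3, HEPACAM2 and STAP1 in the caput list alone. Counts of these calls are therefore a description, and nothing rests on them.

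The study mapped m6A (N6-methyladenosine, adenosine with a methyl group in mRNA) in the cauda, corpus and caput of the epididymis of 6 healthy male yaks (Bos grunniens) aged 4 years. Poly(A) RNA was fragmented, and part of it was pulled down with an m6A antibody (RIP libraries), while input libraries were sequenced without that step. Each of the 3 regions had 3 RIP and 3 input libraries, 18 in all, and no treatment is named. No label ties a library to an animal, so any spread between libraries may be technical.

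The vacuolar proton pump (V-ATPase) moves protons across membranes. It has a soluble V1 sector that splits ATP and a membrane sector, V0, that carries the protons. Narrow and clear cells of the epididymal epithelium use it to acidify the lumen, which keeps sperm quiescent while they mature and are stored. Several subunits exist as one isoform found in most cells and another concentrated in cells that secrete acid, such as these cells and the intercalated cells of the kidney.

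Expression was deposited as FPKM, fragments scaled to transcript length and library size, for the 9 input libraries, in columns coded EA, EB or EC, with 3 libraries per code. No label ties a code to a region, so each library is given by its own code, with no mean and no test between codes, and levels cannot be set beside the m6A peaks region by region. The number after the letters is shared by EB1_3 and EB1_4, and 2, 3 and 4 recur across codes (EA2_1, EB2_1 and EC2_2, for example). No source used here says whether such a number marks an animal. Library totals ranged between 18198919 and 22182334 fragments in the genes whose fragments could be recovered from the FPKM values. The codes stood apart for these genes: 6 of the 7 members had every EA library above every EB and EC library, a pattern of 5.06% of all genes. That share was 12.9% without EC2_2 and 7.62% without EA2_1, where the members' count remained 6. Leaving out a library cannot lower either of them, so this is no test of the pattern. The members were chosen with m6A calls in view, in which methylation and transcript level cannot be told apart. Their count of 6 is therefore a description too. No member had every EB library, or every EC library, above all others, against 3.52% and 7.01% of all genes. In these whole-tissue libraries, fewer cells of a type and less RNA per cell cannot be told apart.

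**Figure D1:**
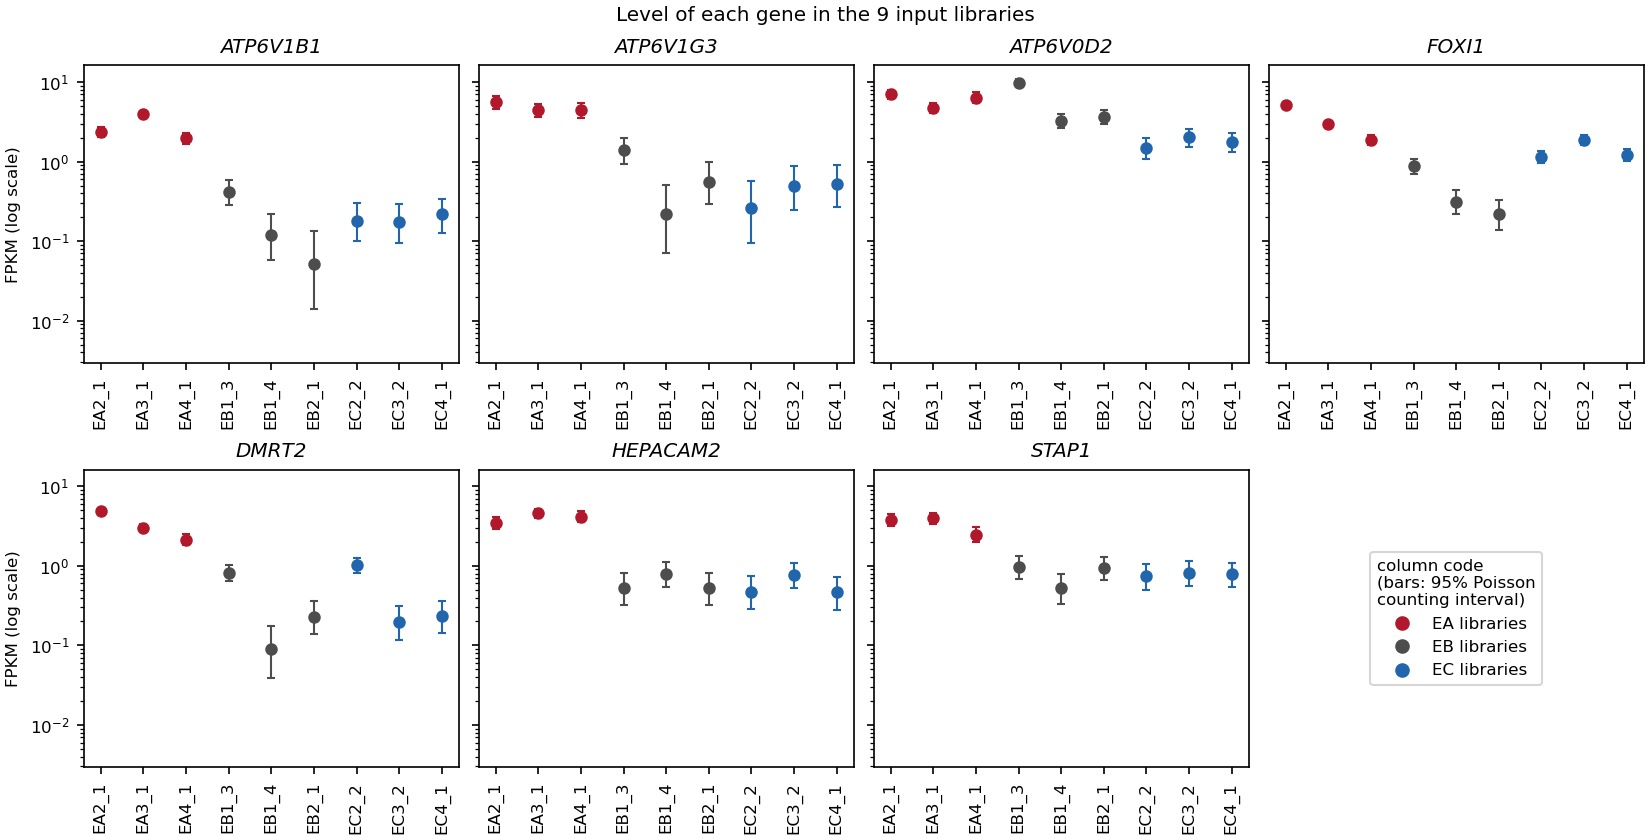
FPKM of the 7 members (log axis) in each input library, with 1 point per library and libraries grouped by code. EA libraries lie above all others for every member except ATP6V0D2, which was highest in EB1_3, and FOXI1 nearly ties between EA4_1 and EC3_2.

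Among the pump subunits, ATP6V1B1 encodes the B1 isoform of the ATP-binding B subunit, the form concentrated in acid-secreting cells. It had 2.36, 3.94 and 1.98 FPKM in EA2_1, EA3_1 and EA4_1, 0.414, 0.121 and 0.0519 FPKM in EB1_3, EB1_4 and EB2_1, and 0.181, 0.176 and 0.216 FPKM in EC2_2, EC3_2 and EC4_1. Every EA library was above every other one, and the lowest EA level was 4.77 times the highest of the rest. The values rested on 145 to 365 fragments in EA libraries but on 4 to 32 in EB libraries, where EB2_1 had 4 fragments and a 95% exact Poisson interval of 0.0141 to 0.133 FPKM. Such intervals cover counting error only.

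ATP6V1G3 encodes an isoform of the stalk subunit G. It had 5.56, 4.47 and 4.41 FPKM in EA2_1, EA3_1 and EA4_1, 1.40, 0.217 and 0.560 FPKM in EB1_3, EB1_4 and EB2_1, and 0.261, 0.496 and 0.519 FPKM in EC2_2, EC3_2 and EC4_1. The EA libraries lay close together and did not overlap with the rest, and the lowest of them was 3.16 times EB1_3. EB1_3 in turn was 6.44 times EB1_4, so the EB libraries differed among themselves more than the EA libraries, whose highest was 1.26 times their lowest.

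ATP6V0D2 encodes an isoform of subunit d, which couples both sectors and is also known from osteoclasts. It had 6.99, 4.73 and 6.38 FPKM in EA2_1, EA3_1 and EA4_1, 9.77, 3.22 and 3.68 FPKM in EB1_3, EB1_4 and EB2_1, and 1.48, 2.02 and 1.77 FPKM in EC2_2, EC3_2 and EC4_1. It was the member whose EA and EB libraries overlapped, with its highest level in EB1_3. Its EC libraries were all below the other 6. Without EB1_3, all 7 members had EA above the rest, against 6.36% of all genes. With a median of 3.68 FPKM it stood at percentile 48.5 of all genes, above the other members, whose medians of 0.216 to 1.21 FPKM stood at percentiles 22.2 to 35.1.

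FOXI1 is the forkhead transcription factor that, in mice, these cells need to express several pump subunits. It had 5.10, 2.94 and 1.87 FPKM in EA2_1, EA3_1 and EA4_1, 0.870, 0.313 and 0.218 FPKM in EB1_3, EB1_4 and EB2_1, and 1.15, 1.87 and 1.21 FPKM in EC2_2, EC3_2 and EC4_1. EA4_1 exceeded EC3_2 only in the digits beyond those printed, and their 95% exact Poisson intervals, 1.61 to 2.17 and 1.62 to 2.15 FPKM, overlapped almost fully. The count of 6 members therefore includes a near tie. Its EC libraries were all above its EB libraries, the reverse of the order of ATP6V0D2.

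DMRT2 is a DM-domain transcription factor known from acid-secreting intercalated cells of the kidney. It had 4.87, 2.96 and 2.13 FPKM in EA2_1, EA3_1 and EA4_1, 0.819, 0.0897 and 0.229 FPKM in EB1_3, EB1_4 and EB2_1, and 1.02, 0.198 and 0.235 FPKM in EC2_2, EC3_2 and EC4_1. The lowest EA level was 2.08 times the highest of the rest, in EC2_2. One library of each other code, EB1_3 and EC2_2, lay well above its partners, by 9.13 times over the lowest EB and 5.16 times over the lowest EC library.

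HEPACAM2 encodes a membrane protein of the immunoglobulin superfamily. It had 3.47, 4.56 and 4.16 FPKM in EA2_1, EA3_1 and EA4_1, 0.531, 0.792 and 0.532 FPKM in EB1_3, EB1_4 and EB2_1, and 0.471, 0.772 and 0.468 FPKM in EC2_2, EC3_2 and EC4_1. Here EB and EC libraries overlapped and EB1_3 did not stand out, and the lowest EA level was 4.38 times the highest of the rest.

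STAP1 encodes an adaptor protein best known from B lymphocytes. It had 3.78, 3.95 and 2.48 FPKM in EA2_1, EA3_1 and EA4_1, 0.973, 0.524 and 0.949 FPKM in EB1_3, EB1_4 and EB2_1, and 0.741, 0.818 and 0.784 FPKM in EC2_2, EC3_2 and EC4_1. Again EB and EC overlapped below EA, and the lowest EA level was 2.55 times the highest of the rest. MS4A1, a B cell marker, had 0.0170 to 0.0643 FPKM in EA libraries, 0.0408 to 0.102 in EB libraries and 0.0395 to 0.418 in EC libraries. The summed FPKM of the macrophage and lymphocyte list (12 rows) was 42.7 to 49.1 in EA libraries, 41.0 to 56.0 in EB libraries and 51.0 to 102 in EC libraries. EC2_2, with the sum of 102, had 29.4 FPKM of CD68 and 26.2 of CSF1R, both macrophage markers. The part of immune cells in the STAP1 levels was not tested.

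Across the 9 libraries, the correlation of log2(FPKM + 1) between pairs of members is a description over libraries that share a code and, perhaps, an animal. The lowest r was 0.273, between ATP6V0D2 and FOXI1, and the pairs of ATP6V0D2 reached at most 0.705. The pairs without ATP6V0D2 ran between 0.741 and 0.973, the highest being ATP6V1B1 with STAP1. ATP6V0D2 was thus the member that followed the others least.

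For subunits B, G and a, the isoform concentrated in acid-secreting cells was the smaller part of its subunit's mRNA in every input library, and a larger part in EA libraries than in the others. Subunits d and C did not show this order. ATP6V1B1 made up 9.32%, 16.9% and 7.54% of the summed FPKM of ATP6V1B1 and ATP6V1B2, the widespread B isoform, in EA2_1, EA3_1 and EA4_1. In EB libraries the share was 0.217% to 1.49%, and in EC libraries 0.698% to 0.895%. The lowest EA share was thus 5.08 times the highest share elsewhere. No source used here says how reads shared by isoform genes were counted.

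For subunit G, ATP6V1G3 was 1.28%, 1.10% and 0.975% of ATP6V1G3 and ATP6V1G1 together in EA2_1, EA3_1 and EA4_1, against at most 0.301% elsewhere. For subunit d, ATP6V0D2 was 4.13%, 2.67% and 3.2% of ATP6V0D2 and ATP6V0D1 in the same EA libraries, 4.28%, 1.49% and 1.53% in EB1_3, EB1_4 and EB2_1, and 0.707% to 0.837% in EC libraries. As with its level, the share of ATP6V0D2 overlapped between EA and EB. ATP6V0A4, not a member and the acid-secreting isoform of the membrane subunit a, was 12.7%, 7.65% and 7.63% of ATP6V0A4, ATP6V0A1 and ATP6V0A2 in EA2_1, EA3_1 and EA4_1, against at most 2.15% elsewhere. For subunit C, ATP6V1C2, which is on both the pump and the clear and narrow cell lists, was most of the mRNA of ATP6V1C2 and ATP6V1C1. Its share was 65.4%, 72.0% and 73.5% in EA2_1, EA3_1 and EA4_1, 75.5%, 87.2% and 86.5% in EB1_3, EB1_4 and EB2_1, and 68.8%, 86.1% and 81.4% in EC2_2, EC3_2 and EC4_1. EA shares were thus below those of EB, and overlapped with EC through EC2_2.

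**Figure D2:**
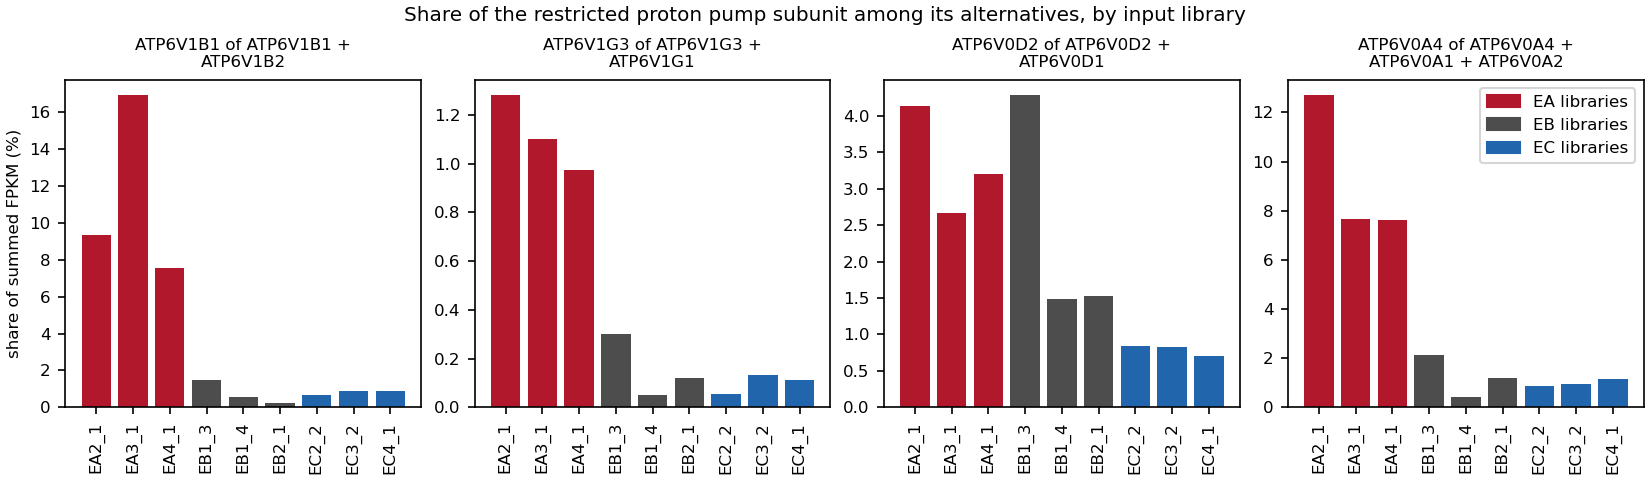
Share (percent of summed FPKM, linear axis from 0) of ATP6V1B1, ATP6V1G3, ATP6V0D2 and ATP6V0A4 within their pump subunits, with 1 bar per input library grouped by code. EA libraries lie above all others for subunits B, G and a, and subunit d overlaps through EB1_3.

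Of the 26 pump rows that are not members, 1 (3.85%), ATP6V0A4, had every EA library above the rest, a share near the 5.06% of all genes. It had 5.15, 3.24 and 3.82 FPKM in EA2_1, EA3_1 and EA4_1, 1.29, 0.284 and 0.660 FPKM in EB1_3, EB1_4 and EB2_1, and 0.405, 0.436 and 0.522 FPKM in EC2_2, EC3_2 and EC4_1. The summed FPKM of the whole pump list was 2065 to 2216 in EA libraries, below the 2251 to 2626 of EB libraries and the 2285 to 2846 of EC libraries. The high isoforms of EA libraries thus stood in a pump sum that was lowest there.

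Among 23 rows of genes for assembly and traffic of the pump, 2 (8.70%) had EA above the rest, CCDC115 and STX1A, beside the 5.06% of all genes.

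The label of the members was set beside other genes of clear and narrow cells. Of 31 rows of that list that are not members, 6 (19.4%) had every EA library above every other: ATP6V0A4, BSND, TFCP2L1, CFTR, RHCG and RHBG. Over all genes that share was 5.06%, or 12.9% without EC2_2. The same pattern held for 2 of 10 principal cell rows (20%), 1 of 5 erythrocyte rows (20%) and 1 of 8 multiciliated rows (12.5%). It held for 0 rows of the basal cell, macrophage and lymphocyte, smooth muscle, endothelium, and sperm and spermatid lists. The pattern was therefore not particular to clear and narrow cell genes. RHCG, an ammonia channel, had 309.6, 434.4 and 283.3 FPKM in EA2_1, EA3_1 and EA4_1, at most 0.580 FPKM in EB libraries, and 16.8, 0.344 and 0.364 FPKM in EC2_2, EC3_2 and EC4_1. TFCP2L1, a transcription factor of intercalated cells, had 1.69, 2.39 and 1.19 FPKM in EA2_1, EA3_1 and EA4_1 and at most 0.327 FPKM elsewhere. Other genes of the list did not share the pattern: SLC4A1, the anion exchanger of acid-secreting intercalated cells, was at 0 in 8 of the 9 libraries. SLC26A4, the exchanger pendrin, had 0.327 to 1.02 FPKM in EA libraries and was highest in EB1_3 with 3.57 FPKM. Names of cells therefore stand here as the members' known setting, and no cells were counted. RHCG also carried the summed FPKM of this list, which was 435 to 571 in EA libraries, 178 to 207 in EB libraries and 158 to 180 in EC libraries. Without RHCG, a choice made after its values were seen, the order turned round, with 127 to 151 FPKM in EA libraries, 177 to 207 in EB libraries and 157 to 163 in EC libraries. A few abundant rows weighed on that remaining sum. The higher ATP6V1C2 row had 21.6 to 28.0 FPKM in EA and 40.3 to 72.9 in EB libraries. P2RY14 had 1.48 to 13.9 and 38.5 to 58.4 FPKM, and GRHL2 18.6 to 25.6 and 27.1 to 43.4 FPKM. In EC libraries ATP6V1C2 had 33.1 to 78.3 FPKM, P2RY14 7.55 to 14.7 and GRHL2 14.1 to 21.0. CA2 was among the rows that went the other way between EA and EB, with 6.55 to 15.7 FPKM in EA and 0.463 to 1.26 in EB libraries. Its highest level was in EC2_2, with 24.6 FPKM, while EC3_2 had 2.545 and EC4_1 1.88 FPKM. The order of the sum was thus not that of every gene.

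Markers of other cell types also moved between the libraries. Over 10 principal cell rows, the sum was 50454 to 128562 FPKM in EA libraries, 37379 to 51043 in EB libraries and 5567 to 17983 in EC libraries. Over 9 sperm and spermatid rows it was 809 to 1166 FPKM in EA libraries, 3.50 to 92.7 in EB libraries and 360 to 2279 in EC libraries. Multiciliated (8 rows) sums were 34.4 to 75.3 FPKM in EA libraries, 9.33 to 22.3 in EB libraries and 19.9 to 105 in EC libraries. Library EC2_2 had the highest sperm, multiciliated, smooth muscle and endothelium sums, with 2279, 105, 7365 and 58.7 FPKM. In EA2_1 and EC2_2, which share a number, several cilium genes were high together: FOXJ1 had 6.34 FPKM in EA2_1, 4.01 FPKM in EC2_2 and at most 0.344 FPKM in the other 7, with 0 listed in EB2_1 of the same number. RSPH4A of the same list did not follow, with 0.0221 FPKM in EC2_2 and its highest level, 2.17 FPKM, in EA4_1. DMRT2 was also the highest of its code in EA2_1 and in EC2_2. In EC2_2 ATP6V1B1, ATP6V1G3 and HEPACAM2 were each within or below the range of the other EB and EC libraries, while DMRT2 was the highest of them. Basal cell sums (8 rows) were 150 to 167 FPKM in EA, 137 to 152 in EB and 103 to 139 in EC libraries, so that EA overlapped with EB and lay above EC. Endothelium (4 rows) was lower in EA than in EB libraries and overlapped with EC, with 24.4 to 31.2 FPKM against 38.6 to 57.6 in EB and 30.5 to 58.7 in EC libraries, and erythrocyte sums (5 rows) were at most 9.12 FPKM in any library. Smooth muscle (5 rows) summed to 3681 to 5662 FPKM in EA libraries, 3632 to 4360 in EB libraries and 5448 to 7365 in EC libraries. The part of these differences in the members' levels was not tested.

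**Figure D3:**
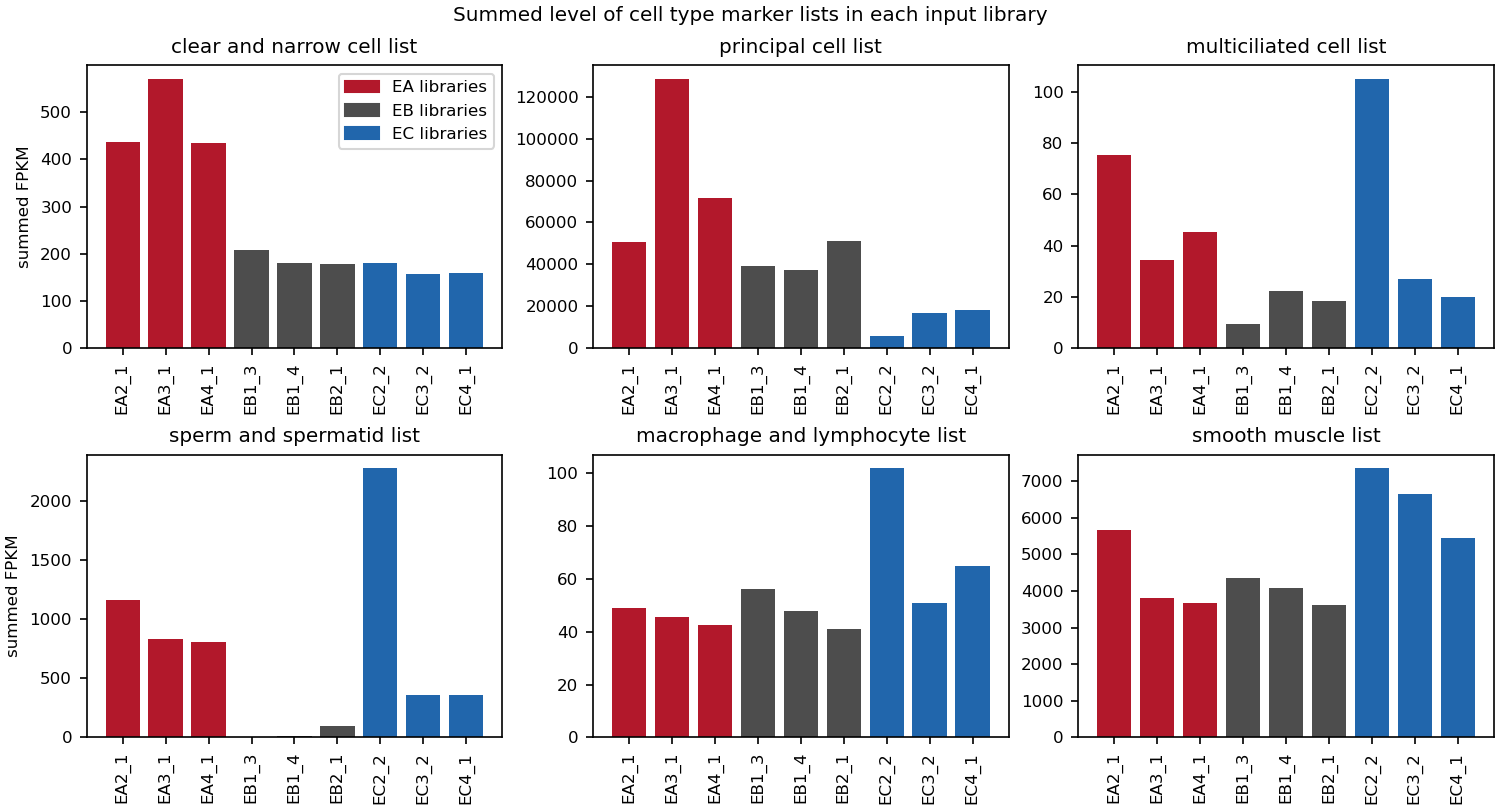
Summed FPKM (linear axis) of the clear and narrow cell, principal cell, multiciliated cell, sperm and spermatid, macrophage and lymphocyte, and smooth muscle lists. Bars give each input library, grouped by code. The clear and narrow cell sum is 435 to 571 in EA libraries and 158 to 207 in the others, but 127 to 151 and 157 to 207 without RHCG, while the sums of sperm and multiciliated markers are highest in EC2_2.

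Outside the lists, likeness to the members was measured as Pearson's r, over the 9 input libraries, between a gene's log2(FPKM + 1) and the mean z-score of the members. Of 12663 genes compared, 188 (1.48%) had an r of at least 0.9, so such a value was not rare. The 10 highest were CCKBR (0.991), DLGAP3 (0.984), CLDN2 (0.984), ATP6V0A4 (0.983), PLG (0.983), MTERF4 (0.979), SMPX (0.977), ENTPD6 (0.977), KLHL13 (0.976) and KIAA1755 (0.975). Each had every EA library above every other. CLDN2, a claudin of tight junctions, had 117.3, 42.9 and 64.6 FPKM in EA2_1, EA3_1 and EA4_1 and at most 1.31 FPKM elsewhere. CCKBR, a receptor of gastrin and cholecystokinin, was closer to the members in level, with 5.46, 3.23 and 2.29 FPKM in EA2_1, EA3_1 and EA4_1, 0.626 FPKM in EB1_3, 0.139 FPKM in EC2_2 and 0 listed in the other 4. MTERF4, a factor of mitochondrial ribosome assembly, was alike in shape alone, with 40.4 to 44.3 FPKM in EA libraries and 24.8 to 31.8 elsewhere. The members' own r with this mean ran between 0.655 for ATP6V0D2 and 0.990 for ATP6V1G3. Each member is part of the mean, which raises its own r, so these values do not compare with those of other genes.

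For m6A, the authors deposited 1 table per pair of regions, with a fold, a p-value and an adjusted p-value for each peak and no value per library. A peak is called here at an adjusted p under 0.05. No source used here says if the folds were corrected for input, so methylation and transcript level cannot be told apart in them. No genome build is named there either, so coordinates are those of the files, counted from 1, with the letters at these positions not analysed here. The peak tables give the gene of each peak but no exon or UTR.

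In corpus over caput, the authors' deposited table held 10 peaks of the members, 4 of them called lower and 0 higher. The share of all 14061 peaks in the authors' deposited table called lower was 1.86%, and 1.12% were called higher. At an unadjusted p under 0.05, 5 of the 10 were lower and 0 higher in the authors' deposited table, where 9.24% of all peaks were lower. The members' median log2 fold was -0.40, against -0.02 over all peaks of the authors' deposited table. This is the comparison the members were selected on, so nothing is read from these shares.

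In cauda over caput the authors' deposited table held 7 member peaks, in every member but ATP6V1B1, with 1 called lower and 0 higher. Of all 13826 peaks there, 0.861% were called lower and 1.41% higher in the authors' deposited table. At an unadjusted p under 0.05, 2 of the 7 were lower and 0 higher, where 6.68% of all peaks in the authors' deposited table were lower. Their median log2 fold was -0.23, against 0.04 over all peaks of the authors' deposited table. This comparison shares its caput libraries with corpus over caput, so the 2 sets of folds are not independent.

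In cauda over corpus the authors' deposited table held 3 member peaks, in ATP6V0D2 and FOXI1, with 0 called in either direction. Of all 13917 peaks in the authors' deposited table, 0.719% were called lower and 1.24% higher. At an unadjusted p under 0.05, 1 of the 3 was higher and 0 lower, where 9.71% of all peaks in the authors' deposited table were higher.

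**Figure D4:**
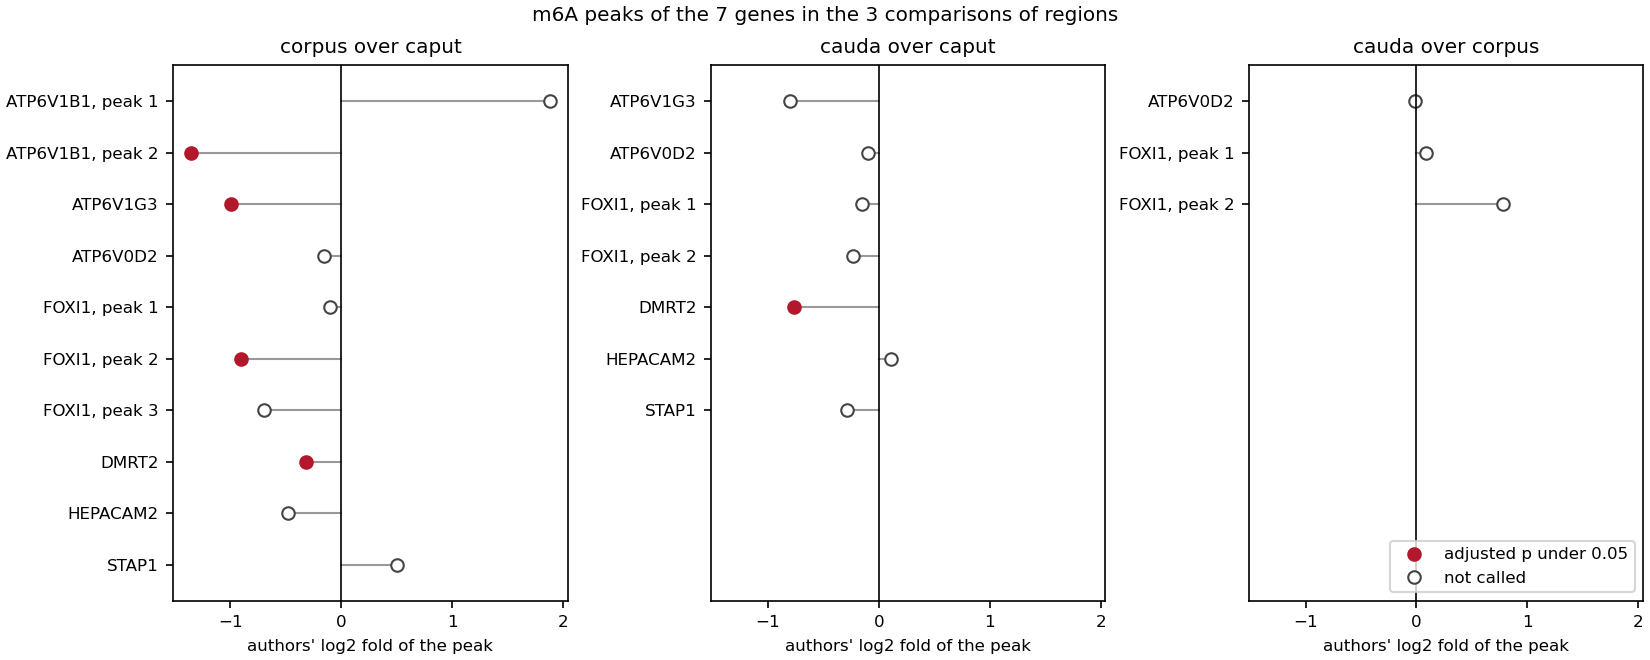
Log2 fold of each member peak in the 3 comparisons of the authors' deposited tables, with filled points for peaks at an adjusted p under 0.05 and peaks numbered by position within each comparison. The 4 filled points of corpus over caput and the 1 of cauda over caput lie below 0, and ATP6V1B1's other peak is the highest point.

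ATP6V1B1 had 2 peaks on the minus strand of chromosome 9 in corpus over caput, and they differed in direction. The one at chr9:32225780-32225977 had a log2 fold of -1.35, a fold of 0.392, at an adjusted p of 0.0138 by the authors' deposited table. The one at chr9:32224892-32225138, toward the 3′ end, had a log2 fold of 1.88 at an adjusted p of 0.868 by the authors' deposited table. The larger of these folds in size was thus the one that was not called. ATP6V1B1 had no peak in either comparison of the cauda.

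ATP6V1G3 had 1 spliced peak, chr14:78748518-78749581 on the minus strand, 145 bases long within a span of 1064. Its log2 fold in the authors' deposited table was -0.99 in corpus over caput (adjusted p = 0.0363). In cauda over caput it was -0.80 in the authors' deposited table (adjusted p = 0.0692), just past the threshold. The called value had the largest adjusted p among the members' calls, so it stood just inside the threshold.

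ATP6V0D2, the member that stood apart in expression, also had folds near 0. Its spliced peak on the minus strand of chromosome 18, 447 bases within chr18:69472463-69484408 in the comparisons over caput, had log2 folds of -0.15 in corpus over caput and -0.10 in cauda over caput in the authors' deposited tables (adjusted p = 0.982 and 0.670). In cauda over corpus it was -0.01 in the authors' deposited table (adjusted p = 0.791).

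FOXI1 had peaks in 2 stretches of the minus strand of chromosome 23, and only the upstream stretch held a call. In corpus over caput, chr23:5408202-5408599 had a log2 fold of -0.91 at an adjusted p of 0.0240 by the authors' deposited table. The neighbouring peak, chr23:5408698-5408946, had a log2 fold of -0.69 and stood just outside the threshold (adjusted p = 0.0562) in the authors' deposited table. That same peak was 0.78 on the log2 scale in cauda over corpus, at an unadjusted p of 0.0129 and an adjusted p of 0.204, by the authors' deposited table.

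In cauda over caput the upstream stretch was listed as 1 peak, chr23:5408202-5408946, with a log2 fold of -0.23 at an adjusted p of 0.376 by the authors' deposited table. The downstream peak, starting at base 5406764 in both comparisons over caput, stayed closer to 0. Its log2 folds in the authors' deposited tables were -0.10 in corpus over caput (adjusted p = 0.689), -0.15 in cauda over caput (adjusted p = 0.736) and 0.09 in cauda over corpus (adjusted p = 0.614).

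DMRT2 had 1 unspliced peak of 899 bases, chr7:76660107-76661005 on the plus strand, and the smallest p-values of the members. Its log2 fold was -0.32 in corpus over caput (adjusted p = 1.072e-04) in the authors' deposited table. In cauda over caput the log2 fold was -0.76 by the authors' deposited table, whose adjusted p of 1.100e-06 made it the member called there. In corpus over caput it combined the log2 fold nearest to 0 with the smallest p among the members' 4 calls.

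HEPACAM2 and STAP1 had no called peak. The spliced peak of HEPACAM2, 148 bases within chr4:119460186-119464582 on the plus strand, had log2 folds of -0.48 in corpus over caput and 0.11 in cauda over caput in the authors' deposited tables (adjusted p = 0.508 and 0.908). STAP1, on the minus strand of chromosome 6, had a different spliced peak in each comparison. In corpus over caput chr6:38073961-38083508 had a log2 fold of 0.50, and in cauda over caput chr6:38055101-38056915 had one of -0.29, in the authors' deposited tables (adjusted p = 0.799 and 0.762).

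The authors also deposited 1 list of candidate adenosines per region, each with a prediction score and a class. Within the members' peaks, the candidates numbered 3 in the cauda list, 15 in the corpus list and 55 in the caput list, at 57 distinct positions. Of these, 0 in cauda, 3 in corpus and 9 in caput were classed as m6A sites. The lowest combined score of any position so classed in the 3 lists was 0.557. All 7 members had candidates in caput, 2 in corpus (ATP6V0D2 and DMRT2) and 1 in cauda (FOXI1). Of the members, 4, namely ATP6V1B1, ATP6V1G3, HEPACAM2 and STAP1, had candidates in the caput list alone, as did 5.71% of the 8740 genes with candidates. The members were selected on this listing too. STAP1 is in it only because peaks compared define the count: the cauda list also has a peak with 2 candidates at chr6:38061758-38063550, between the compared peaks of STAP1. There is 1 list per region and no replicate, and a position has the same score in each list, so scores do not compare the regions.

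DMRT2 had 0 candidates in cauda, 10 in corpus, 2 of them classed, and 26 in caput, 6 of them classed. Positions 76660212 (score 0.601) and 76660279 (score 0.643) were classed in both lists. The highest score of any member, 0.697 at position 76660477, of very high confidence, was in the caput list alone. DMRT2 had no listed peak in cauda, 2 stretches of 201 and 200 bases in corpus, and 1 peak over all 899 bases in caput.

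Within the peaks compared, FOXI1 had 3 candidates in cauda with none classed, 0 in corpus, and 8 in caput, 1 of them classed (position 5408565, score 0.607). Its listed peaks spanned 199 and 298 bases in cauda, and 299 and 894 bases in caput. Those of caput run past the peaks compared and held 2 and 13 candidates, 3 of the 13 classed. FOXI1 thus was listed in cauda but not in corpus, while DMRT2 was listed in corpus but not in cauda.

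ATP6V1B1 had 8 candidates in caput, and both classed ones, positions 32224988 (score 0.608) and 32225068 (score 0.638), lay in the peak that was not called. The called peak held 3 candidates and 0 classed ones. ATP6V0D2 had 5 candidates in corpus and 5 in caput, with 1 classed, in corpus alone (position 69484383, score 0.593). Within the peaks compared, ATP6V1G3, HEPACAM2 and STAP1 had 1, 2 and 5 candidates in caput and 0 classed. The listed caput peak at ATP6V1G3 ran past the peak compared, over 12651 bases, and held 5 candidates. A further caput peak, chr6:38061758-38063599, between the compared peaks of STAP1, held 3. None in these 2 listed peaks was classed. A list entry needs a candidate, so an empty list does not show that a transcript was unmethylated.

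**Figure D5:**
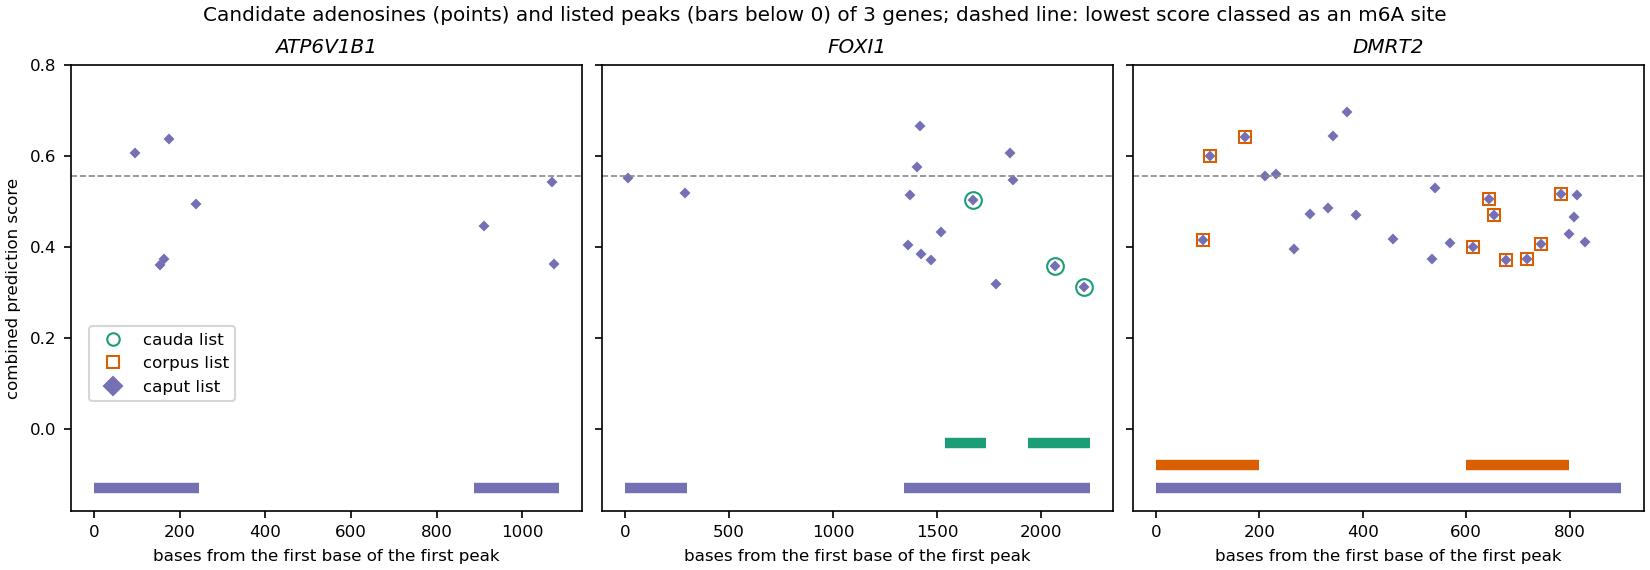
Combined score of each candidate adenosine against its distance in bases from the first base of the gene's first listed peak, for ATP6V1B1, FOXI1 and DMRT2, with listed peaks as bars below 0 and colour and shape giving the region's list. Caput points and bars run through all 3 genes, corpus ones appear in DMRT2 and cauda ones in FOXI1, and the dashed line marks 0.557.

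Peaks in other pump subunits had no call in any of the 3 comparisons. Pump genes that are not members had 13 peaks in 9 genes in corpus over caput, with 0 called by the authors' deposited table and a median log2 fold of -0.08. By that same authors' deposited table, 1 was higher and 1 lower at an unadjusted p under 0.05. They had 7 peaks in cauda over caput and 10 in cauda over corpus, again with 0 called, and the authors' deposited tables gave 1 higher and 0 lower, and 3 higher and 1 lower, at an unadjusted p under 0.05. In the assembly and traffic list, NCOA7, a TLDc-domain protein that binds the pump, was the gene with a call. Its peak chr10:67461240-67471424 had log2 folds of 0.35 in cauda over caput (adjusted p = 0.0302) and 0.36 in cauda over corpus (adjusted p = 0.0372) in the authors' deposited tables.

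Of the clear and narrow cell genes that are not members, 12 genes had 28 peaks in corpus over caput, with 2 called lower and 0 higher in the authors' deposited table. CFTR, the chloride channel, had a peak at chr4:76157374-76159015 with a log2 fold of -0.98 at an adjusted p of 0.01995 by the authors' deposited table. CA12, a membrane carbonic anhydrase, had one at chr11:33231602-33231998 with a log2 fold of -0.87 at an adjusted p of 0.0275 by the authors' deposited table. In cauda over caput 2 of 21 peaks were called lower and 0 higher in the authors' deposited table, CA12 at -1.23 (adjusted p = 0.0141) and BSND, a chloride channel subunit, at -1.61 (adjusted p = 0.0324) on the log2 scale. In cauda over corpus 0 of 19 were called, and the authors' deposited table had 4 higher and 2 lower at an unadjusted p under 0.05. The medians of the log2 folds were -0.16 in corpus over caput, -0.12 in cauda over caput and 0.15 in cauda over corpus in the authors' deposited tables, against -0.02, 0.04 and 0.05 over all peaks.

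Peaks of other cell types' markers were called too. In corpus over caput, the authors' deposited table called 1 peak of RSPH4A (log2 fold 1.22) and 1 of PTPRC (0.93) higher. Called lower in the authors' deposited table were DNAI2 (-0.40), TEKT1 (-0.45 and -1.48), EMCN (-0.84), HEMGN (-2.08, -1.53 and -1.09), AKAP3 (-0.30) and AKAP4 (-0.42), on the log2 scale. In cauda over caput the authors' deposited table called RSPH4A (-0.58, and -1.46 with its p listed as 0) and EMCN (-0.87) lower, and in cauda over corpus ITGA6 (-0.59) lower and TEKT1 (1.34) and EMCN (0.01) higher. Markers of the multiciliated, macrophage and lymphocyte, endothelium, erythrocyte, and sperm and spermatid lists thus had calls in corpus over caput, as the members did. HEMGN was the only gene of the erythrocyte list with a peak there. The part of these cell types in the members' folds was not tested.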

How the data were processed

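The data were m6A antibody sequencing libraries and input libraries of 3 regions of the yak epididymis. The members and lists were chosen with earlier results of these data known. Per the submitters' processing notes, which list no versions, the tools included HISAT2, Trimmomatic and deepTools. The genome build, annotation, peak caller, differential test and site predictor: not given in the sources used here.

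The deposited FPKM values were used as given, with a pseudocount of 1 before log2. FPKM values of a gene are whole multiples of what 1 fragment is worth, which gave relative depths and fragments for 99.4% of 16716 genes above 0 in at least 4 libraries. These fragments serve to show counting error and were not tested. The authors' ratio (fold), its log2 value, p-value and adjusted p-value per peak were taken from the deposited tables. Folds were read as first-named over second-named region: unspliced peaks with candidates in the corpus list alone in corpus over caput had a median of 0.32 on the log2 scale by the authors' deposited table, and those in the caput list alone -0.38. The score and class of each candidate are the authors', per the file headers. Candidates were assigned to a gene through peak spans, introns included, each position once.

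No test between regions or codes was run, since peaks have no value per library and the input codes name no region. Named are all members, listed genes with a called peak, and the 10 genes most like the members with a mean FPKM of at least 1. Genes named beyond this rule were chosen after their values were seen. Dixon's ratio, with a critical value of 0.493 for 9 values, marked libraries far from the rest. Python 3.11.15, pandas 2.3.3 and intervaltree 3.1.0 were used.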

Additional observations from a re-analysis of the deposited data

Results flagged for a closer look

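The summed FPKM of the macrophage and lymphocyte list in library EC2_2, 102, lay far from the other input libraries (41.0 to 65.0), relative to the whole range of the 9. It was the 1 such value among 18 tested (the members and the lists), where chance gives about 1 in 20.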

How the results depend on the processing

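The 4 peaks called lower in corpus over caput were 1 at an adjusted p under 0.01. At an unadjusted p under 0.05, lower peaks in cauda over caput were 2 instead of 1, and higher peaks in cauda over corpus 1 instead of 0. Candidates in cauda, corpus and caput (3, 15 and 55) were 0, 3 and 9 if classed as m6A sites, and 0, 1 and 4 if of high or very high confidence. By each region's own listed peaks, an alternative chosen after seeing the data, cauda had 5. Of the 10 genes most like the members, 3 remained with Spearman's rho. Leaving out 1 library at a time kept 3 to 9 of them, with 3 without EA2_1, 5 without EB1_3, 5 without EC2_2 and 6 without EA4_1. The members with EA above the rest numbered 6 to 7, with 7 without EB1_3, and the share of all genes was 12.9% without EC2_2 and 7.62% without EA2_1. Leaving out a library cannot lower such a count, and every member passes the filter on mean FPKM. These settings therefore could not challenge the count of 6. For the clear and narrow cell sum, the lowest EA library was 2.1 times the highest other one, and 0.612 times it without RHCG, a choice also made after seeing the data. The causes of the other shifts were not tested. The other 47 alternative values were equal to the main ones or within 1.5 times them. They include counts of 0 that stayed 0, and settings that could not change a count. Leaving out peaks whose p is listed as 0 was such a setting, as no member peak has one. The number 47 is therefore no measure of robustness. Restricting candidates to exon blocks was not run, since the files used here hold no blocks. No paired analysis was possible because peaks have no value per library and the input columns carry neither a region nor the replicate number of any label.

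The members' lowest levels rest on few fragments, down to 4 for ATP6V1B1 in EB2_1.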
